A study of Mus musculus with 6 samples.

Results

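Transcripts of the NF-kB subunits and of the IkB proteins that hold them in check were followed in pre-B leukemia cells with and without the adaptor Blnk. The set holds 10 genes chosen by name: the subunits Nfkb1, Nfkb2, Rel, Rela and Relb, the inhibitors Nfkbia, Nfkbib and Nfkbie, and the nuclear IkB proteins Nfkbiz and Bcl3. Each gene was represented by its brightest probe among those annotated to that gene alone, and 9 of the 10 were measured, out of 19938 genes in all. Nfkb1, which encodes the precursor p105 and its product p50, was not analysed here. All 9 measured members had 1 such probe each.

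The Blnk group (3 samples) and the pMIG group (3 samples) were both BCR-ABL1 transformed pre-B cells labelled Blnk KO, from Balb/c mice aged 4 weeks. The Blnk group was transduced with Blnk (Slp65) and the pMIG group with the empty GFP-bearing retroviral vector pMIG. Sorting for GFP followed on day 5 after transduction. Both groups therefore carried the kinase fusion BCR-ABL1, the knockout and a retroviral vector, and the pMIG cells stand for cells that lack the adaptor, not for normal pre-B cells. Whether the 3 samples of a group were separate cultures or animals is not in the labels. The p-values therefore rest on the spread between these samples alone, and that spread may be technical.

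NF-kB is a family of transcription factors that wait in the cytoplasm, bound by IkB proteins. In the canonical pathway, signals from antigen receptors, Toll-like receptors or TNF receptors activate an IkB kinase complex, the inhibitors IkB-alpha (Nfkbia), IkB-beta (Nfkbib) and IkB-epsilon (Nfkbie) are destroyed, and dimers built from RELA or REL with p50 enter the nucleus. In the non-canonical pathway, receptors such as CD40 and the BAFF receptor stabilise the kinase NIK, which leads to the cutting of p100, the product of Nfkb2, to p52, the partner of RELB. Several family members, Nfkb2, Relb, Rel, Nfkbia and Nfkbie among them, are themselves known target genes of NF-kB. BLNK couples the pre-B cell receptor to phospholipase C-gamma and from there to protein kinase C-beta, BCL10 and MALT1, one of the routes to the IkB kinases.

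Median array intensity was 69.0 to 70.0 in the Blnk samples and 67.0 to 69.0 in the pMIG samples. Blnk transcript stood at 2714, 3342 and 3022 in the Blnk samples, against 972, 926 and 1013 in the pMIG samples, a 3.11-fold difference (limma adjusted p = 0.000101). The region of the transcript that its probe reads was not known here, and the pMIG signal is therefore no check of the knockout. Of all 19938 genes, 3.61% passed the threshold of an adjusted p of 0.05 in either direction, 500 higher (2.51%) and 220 lower (1.10%) in Blnk samples. With quantile normalization repeated, 411 were higher and 327 lower, and with arrays centred on their medians, 417 and 291. The 7 measured B-lineage markers were bright in both groups, with intensities from 956 (Vpreb1 in a Blnk sample) to 10793 (Igll1 in a pMIG sample). Of these, 2 rose and 1 fell: Blk (1.85-fold, limma adjusted p = 0.000649) and Cd79a (1.24-fold, 0.0468) were higher, and Vpreb1, a surrogate light chain of the pre-B cell receptor, was at 0.623 of its pMIG level (0.00976). Before adjustment, 3 of the 7 markers were higher and 3 lower at p under 0.05, where 8.91% and 6.32% of all genes were. In 3 of the 7 markers (Blk, Cd79a and Cd79b) every Blnk sample lay above every pMIG sample, as in 11.8% of all genes. In 3 others (Vpreb1, Ebf1 and Igll1) every Blnk sample lay below every pMIG sample, as in 8.15% of all genes. The log2 fold change was 0.35 for Cd79b (limma adjusted p = 0.0616), -0.25 for Ebf1 and -0.19 for Igll1. The part of these shifts in the NF-kB results was not tested.

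Nfkbie, Nfkb2 and Relb rose with Blnk, and no member fell. Nfkbie rose 1.95-fold, Nfkb2 1.62-fold and Relb 1.30-fold. Nfkbia, Nfkbib, Rel and Rela stood 1.25, 1.16, 1.15 and 1.09-fold higher without passing the test, and Nfkbiz and Bcl3 had overlapping groups. Thus 3 of the 9 members passed upward, where 2.51% of all genes did, and 0 passed downward by limma, with 6 higher and 0 lower at p under 0.05 before adjustment, where 8.91% of all genes were higher and 6.32% lower. In 7 of the 9, every Blnk sample lay above every pMIG sample, a pattern that 11.8% of all genes showed in that direction and 8.15% in the opposite one, which 0 members showed. The median log2 fold change was 0.22 over the 9 members and 0.00 over all genes. The members were chosen with earlier results of these data known, so these shares give a scale, not a test. In RNA from a cell population, a change in the share of cells that express a gene and a change in RNA per cell cannot be told apart.

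**Figure D1:**
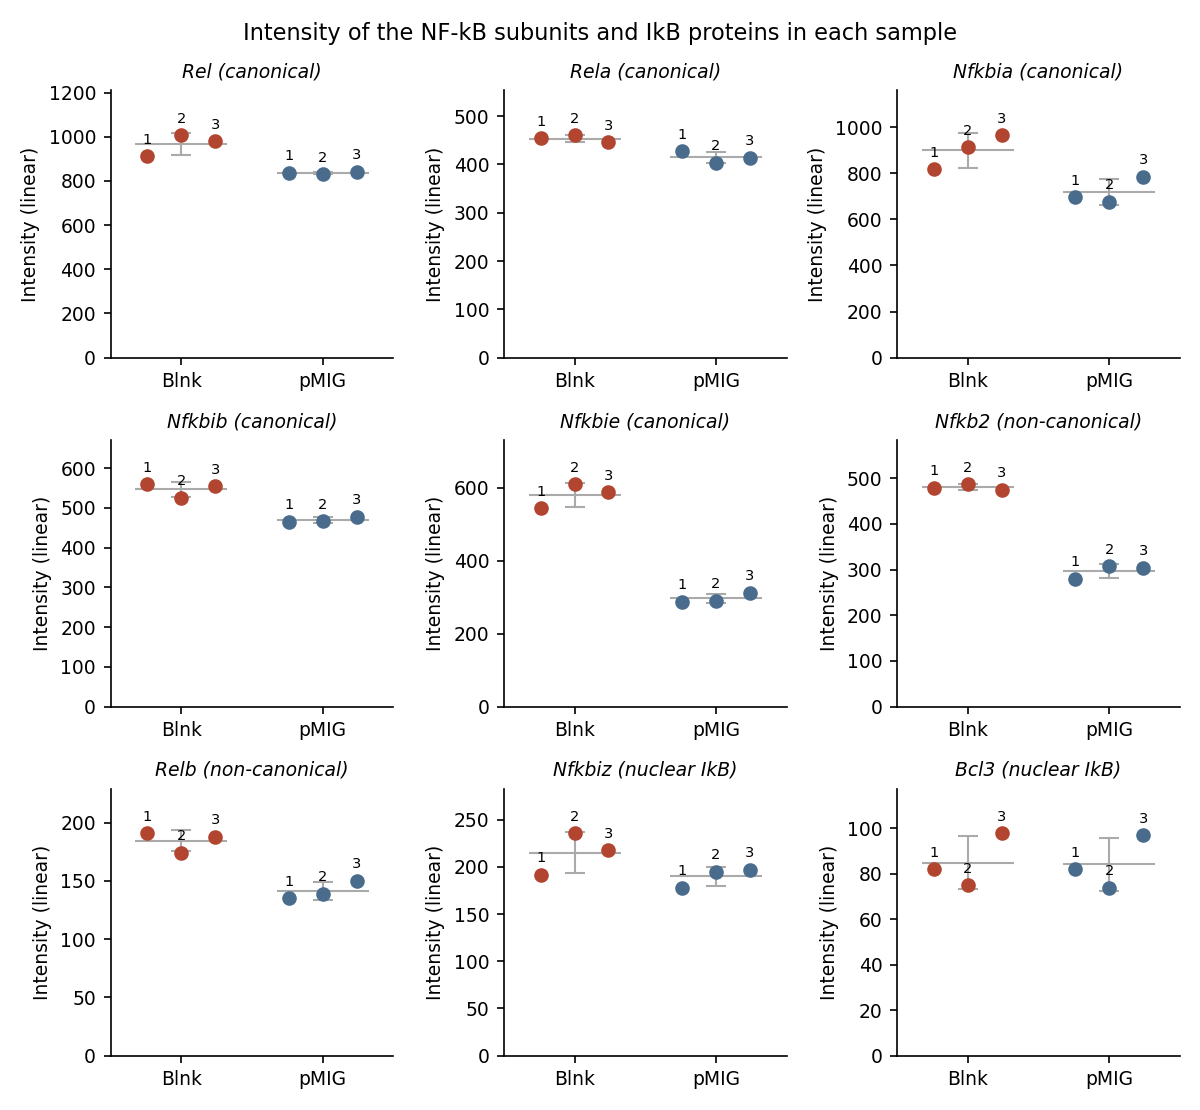
Intensity on a linear scale (vertical axes, starting at 0) of the 9 measured members in the 3 Blnk and 3 pMIG samples. Points are single samples with their replicate numbers, and grey bars give the mean and SD. The Nfkbie and Nfkb2 groups lie far apart, with lowest Blnk values of 543 and 474 against highest pMIG values of 312 and 307, whereas the Bcl3 groups coincide.

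Of the non-canonical subunits, Nfkb2 showed the larger change. Its intensity was 479, 487 and 474 in the Blnk samples, against 280, 307 and 304 in the pMIG samples. All Blnk values were close together, at 480 ± 6.56 (SD, n = 3), and well above the pMIG values, at 297 ± 14.8 (SD, n = 3). The log2 fold change was 0.69 (SE 0.0686, 95% interval 0.53 to 0.85; limma adjusted p = 0.00155). It passed with any 1 sample left out, with adjusted p between 0.00901 and 0.0172. Of all genes, 99.1% had a smaller log2 fold change.

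Relb, which encodes the partner of p52, had intensities of 191, 174 and 188 in the Blnk samples, against 135, 139 and 150 in the pMIG samples. The groups did not overlap, but the lowest Blnk sample stood only 0.21 on the log2 scale above the highest pMIG sample, against 0.63 for Nfkb2. Relb averaged 184 ± 9.07 in Blnk samples and 141 ± 7.77 in pMIG samples (SD, n = 3 each), a log2 fold change of 0.38 (SE 0.0754, 95% interval 0.21 to 0.56; limma adjusted p = 0.0352). The call was lost with any 1 sample left out, with adjusted p of 0.0744 without Blnk 2, 0.0821 without pMIG 3, 0.111 without pMIG 1, 0.117 without Blnk 1, 0.128 without pMIG 2 and 0.137 without Blnk 3. It was also lost with quantile normalization repeated (0.0669) and with arrays centred on their medians (0.0668). In all of these alternatives the log2 fold change stayed between 0.33 and 0.43.

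The sequence before the start sites of Nfkb2 is shown because this gene rose clearly and its promoter letters include close matches to kB sites, the DNA elements that NF-kB dimers bind. RefSeq (GRCm38.p6) lists 3 starts for Nfkb2, on the plus strand of chromosome 19, and the 250 bases before the most upstream and the most downstream start are given 5′ to 3′. Capitals mark every match to GGGNNNNNCC on either strand, a loose form of the kB site in which N is any base, and neighbouring capitals can be overlapping matches.
Nfkb2, most upstream start, chr19:46304487-46304736: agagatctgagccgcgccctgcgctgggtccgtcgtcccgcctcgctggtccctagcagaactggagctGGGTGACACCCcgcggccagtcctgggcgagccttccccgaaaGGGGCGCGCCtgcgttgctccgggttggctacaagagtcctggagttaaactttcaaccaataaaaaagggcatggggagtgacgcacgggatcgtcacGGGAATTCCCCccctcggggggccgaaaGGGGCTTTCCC
Nfkb2, most downstream start, chr19:46305680-46305929: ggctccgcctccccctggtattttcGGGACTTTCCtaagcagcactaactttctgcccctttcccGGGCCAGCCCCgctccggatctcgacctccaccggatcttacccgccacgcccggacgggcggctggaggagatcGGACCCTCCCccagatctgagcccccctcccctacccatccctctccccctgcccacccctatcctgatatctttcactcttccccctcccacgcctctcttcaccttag
The first window holds GGGGCTTTCC from 11 to 2 bases before the start and GGGAATTCCC from 39 to 30 bases before the start. The second holds GGGACTTTCC from 225 to 216 bases before the start. The loose motif occurs in 45.8% of the 32851 RefSeq promoter windows of the same length, so its presence alone is common. The narrower GGGNNTTTCC, each match of which is also a match of the loose motif, occurs in 1.41% of those windows on either strand, and in both Nfkb2 windows printed here, which were chosen with their letters known. The window of the remaining Nfkb2 start holds 0 matches to it. A match is a run of letters and was not tested as a binding site.

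The canonical subunits Rel and Rela were higher in all Blnk samples by small amounts that did not pass the test. Rel, the c-REL subunit, prominent in lymphocytes, had intensities of 911, 1008 and 980 in the Blnk samples, against 837, 831 and 841 in the pMIG samples. The pMIG values lay close together, and the Blnk values were more spread. The log2 fold change was 0.21 (95% interval 0.05 to 0.37; limma adjusted p = 0.192). Rela, the broadly expressed p65 subunit, had 454, 461 and 446 in the Blnk samples, against 427, 404 and 414 in the pMIG samples. Its log2 fold change was 0.13 (95% interval -0.02 to 0.28; limma adjusted p = 0.408), so a rise beyond 1.21-fold lies outside the interval.

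Among the 3 classical inhibitors, Nfkbie moved most, and it moved more than any other member. IkB-epsilon, its product, holds c-REL and RELA dimers and is prominent in B cells. Its intensity was 543, 610 and 587 in the Blnk samples, against 288, 290 and 312 in the pMIG samples. Every Blnk value lay far above the pMIG values, with a gap of 0.80 on the log2 scale between the lowest Blnk and the highest pMIG sample. The means were 580 ± 34.0 in Blnk samples and 297 ± 13.3 in pMIG samples (SD, n = 3 each), a log2 fold change of 0.97 (SE 0.0755, 95% interval 0.79 to 1.14; limma adjusted p = 0.000488). It passed with any 1 sample left out, with adjusted p between 0.00384 and 0.00744. Nfkbie ranked at place 86 of 19938 genes by log2 fold change, ahead of Nfkb2 at place 174 and Relb at place 538.

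Nfkbia encodes IkB-alpha, the inhibitor that NF-kB resynthesises fastest after activation. It had intensities of 818, 914 and 966 in the Blnk samples, against 695, 676 and 785 in the pMIG samples. The groups did not overlap, but the lowest Blnk sample was only 0.06 above pMIG 3 on the log2 scale. The log2 fold change of 0.32 (95% interval 0.11 to 0.54) had an adjusted p of 0.132 by limma. Nfkbib, which encodes IkB-beta, had 560, 526 and 554 in the Blnk samples, against 465, 467 and 478 in the pMIG samples. Its samples agreed more closely within each group than those of Nfkbia, and its log2 fold change of 0.22 (95% interval 0.07 to 0.37) had an adjusted p of 0.146 by limma. The intervals of Nfkbia and Nfkbib both lie wholly below that of Nfkbie. On the same arrays, the log2 intensity of Nfkbie minus that of Nfkbia was -0.63 ± 0.08 in Blnk samples and -1.27 ± 0.06 in pMIG samples (SD, n = 3 each), without overlap. This shift equals the difference of their log2 fold changes and adds no further evidence. The difference between the inhibitors was not tested.

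The windows before the starts of the 3 inhibitors are shown for comparison with those of Nfkb2, each as 250 bases 5′ to 3′ on the strand of the gene, with matches to GGGNNNNNCC on either strand in capitals. Nfkbie lies on the plus strand, Nfkbia and Nfkbib on the minus strand (RefSeq, GRCm38.p6).
Nfkbie, chr17:45555450-45555699: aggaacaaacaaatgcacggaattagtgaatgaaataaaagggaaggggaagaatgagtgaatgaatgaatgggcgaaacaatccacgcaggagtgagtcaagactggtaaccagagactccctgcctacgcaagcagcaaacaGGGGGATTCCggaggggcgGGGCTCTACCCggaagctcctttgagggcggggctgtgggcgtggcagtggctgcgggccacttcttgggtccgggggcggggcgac
Nfkbia, chr12:55492648-55492897: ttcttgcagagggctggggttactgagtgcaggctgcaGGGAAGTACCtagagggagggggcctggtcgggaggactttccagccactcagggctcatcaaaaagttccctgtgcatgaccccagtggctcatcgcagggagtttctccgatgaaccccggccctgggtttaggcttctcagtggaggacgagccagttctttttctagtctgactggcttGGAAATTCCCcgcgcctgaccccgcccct
Nfkbib, chr7:28766645-28766894: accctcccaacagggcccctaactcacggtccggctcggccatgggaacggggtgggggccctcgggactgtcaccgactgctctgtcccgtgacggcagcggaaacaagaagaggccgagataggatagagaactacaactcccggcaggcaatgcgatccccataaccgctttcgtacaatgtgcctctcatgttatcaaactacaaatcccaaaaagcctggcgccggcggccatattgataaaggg
Nfkbie, the member with the largest change, held GGGGGATTCC from 106 to 97 bases before its start and 2 overlapping matches further down, but no match to GGGNNTTTCC. Nfkbia held GGAAATTCCC, a match to that narrower motif on the opposite strand, from 29 to 20 bases before its start. Nfkbib held no match to either motif in this window. RefSeq windows were matched for 7 of the 9 members, and Rel, Nfkbia and Nfkb2 held the narrower motif, against 1.65% of genes with a window. Rel, which did not pass the test, held it, and Nfkbie, which rose most, did not. The members' windows were rich in G and C, from 57.6% (Nfkbie) to 77.6% (Rel) against a median of 52.4% over all windows, and these motifs consist largely of G and C.

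The nuclear IkB proteins did not pass the test, with 0 of 2 called by limma and 0 also at p under 0.05 before adjustment. Of all genes, 3.61% were called in either direction, and 8.91% were higher and 6.32% lower before adjustment. IkB-zeta, encoded by Nfkbiz, and BCL3 bind NF-kB p50 or p52 dimers in the nucleus and act there mainly as cofactors of transcription. Nfkbiz had intensities of 192, 236 and 218 in the Blnk samples, against 178, 195 and 197 in the pMIG samples. Blnk 1 lay within the pMIG range, and the log2 fold change was 0.18 (95% interval -0.04 to 0.39; limma adjusted p = 0.439). Bcl3 had 82, 75 and 98 in the Blnk samples, against 82, 74 and 97 in the pMIG samples. The values of equal replicate number differed by at most 1 unit, although same-numbered samples did not deviate together across genes. The log2 fold change of Bcl3 was 0.01 (95% interval -0.29 to 0.32; limma adjusted p = 0.990), with the opposite sign after quantile normalization (-0.02), centring (-0.02) or array weights (-0.06). Bcl3 was the dimmest member, not far above the array medians, and its interval runs from 0.817-fold to 1.24-fold.

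**Figure D2:**
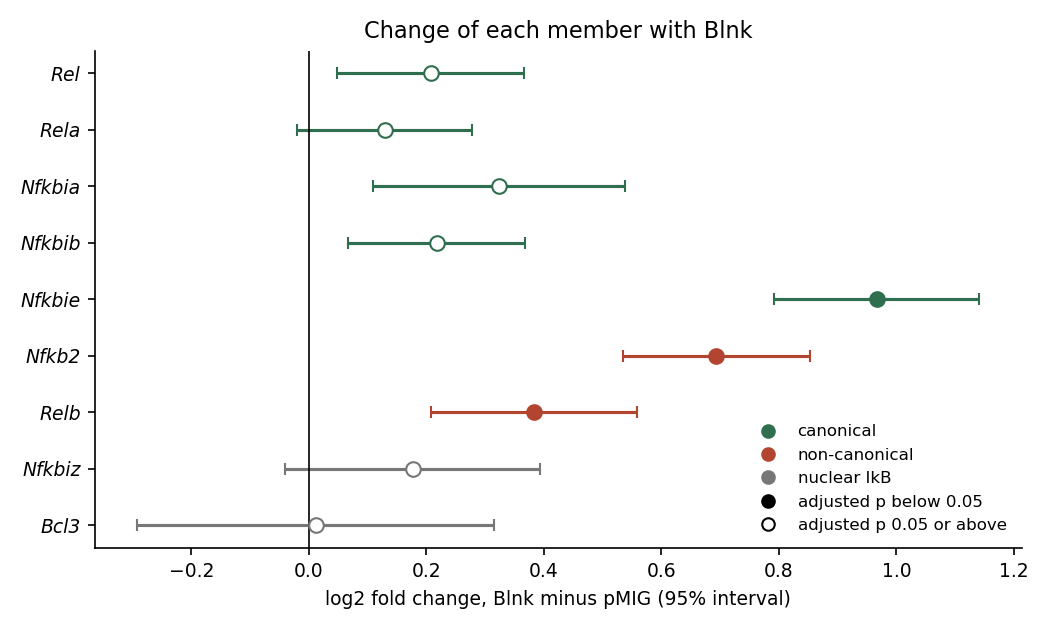
log2 fold change (horizontal axis, Blnk minus pMIG) of each member with its 95% interval from limma. Colours give the class and filled points passed an adjusted p of 0.05. The 2 non-canonical subunits (0.69 and 0.38) lie to the right of all canonical members but Nfkbie (0.97).

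Set class against class, the non-canonical subunits moved more than most canonical members, with 1 exception at the top. Both measured non-canonical members rose in the reported fit, with a median log2 fold change of 0.54, against 1 of the 5 canonical members, with a median of 0.22. The exception was Nfkbie, a canonical inhibitor with the largest change of all 9. The other 4 canonical members lay between 0.13 and 0.32, with 0 called by limma and 3 higher and 0 lower at p under 0.05 before adjustment, and the groups of each of the 4 did not overlap. The interval of Nfkb2 (0.53 to 0.85) lies above those of Rel, Rela and Nfkbib and meets that of Nfkbia (0.11 to 0.54) at its lower end. The interval of Relb (0.21 to 0.56) overlaps those of Rel, Rela, Nfkbia and Nfkbib. The Relb call was lost with any 1 sample left out, under a replicate block, with quantile normalization repeated and with centring. In those fits Nfkb2 alone of the non-canonical members passed, beside Nfkbie of the canonical ones. With dim genes left out Nfkbia passed as well, and with a variance trend both Nfkbia and Nfkbib did. Over all genes 2.51% rose and 1.10% fell by limma, and 8.91% were higher and 6.32% lower before adjustment. In 11.8% of all genes every Blnk sample lay above every pMIG sample. The difference between the classes was not tested, since they are small and were drawn up by pathway role.

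Within each array, the balance of subunits can be given as a difference of log2 intensities, whose shift between groups equals the difference of the log2 fold changes above and adds no further evidence. The log2 intensity of Nfkb2 minus that of Rela was 0.08, 0.08 and 0.09 in the Blnk samples, against -0.61, -0.40 and -0.45 in the pMIG samples. That of Relb minus that of Rela was -1.25, -1.41 and -1.25 in the Blnk samples, against -1.66, -1.54 and -1.47 in the pMIG samples. The Nfkb2 and Rela balance thus shifted by 0.565 and the Relb and Rela balance by 0.255, each without overlap between groups. For Relb, however, the lowest Blnk sample came close to the highest pMIG sample. These differences compare unlike probes, so only their shift between groups can be read, not their level.

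Single arrays sat differently within their groups. pMIG 3 was the highest pMIG sample for 7 of the 9 members and the lowest for 0, and pMIG 1 was the lowest for 5. Blnk 2 was the highest Blnk sample for 5 members and Blnk 1 the lowest for 4. Leaving out any 1 sample left 2 members past the threshold, Nfkbie and Nfkb2 each time.

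**Figure D3:**
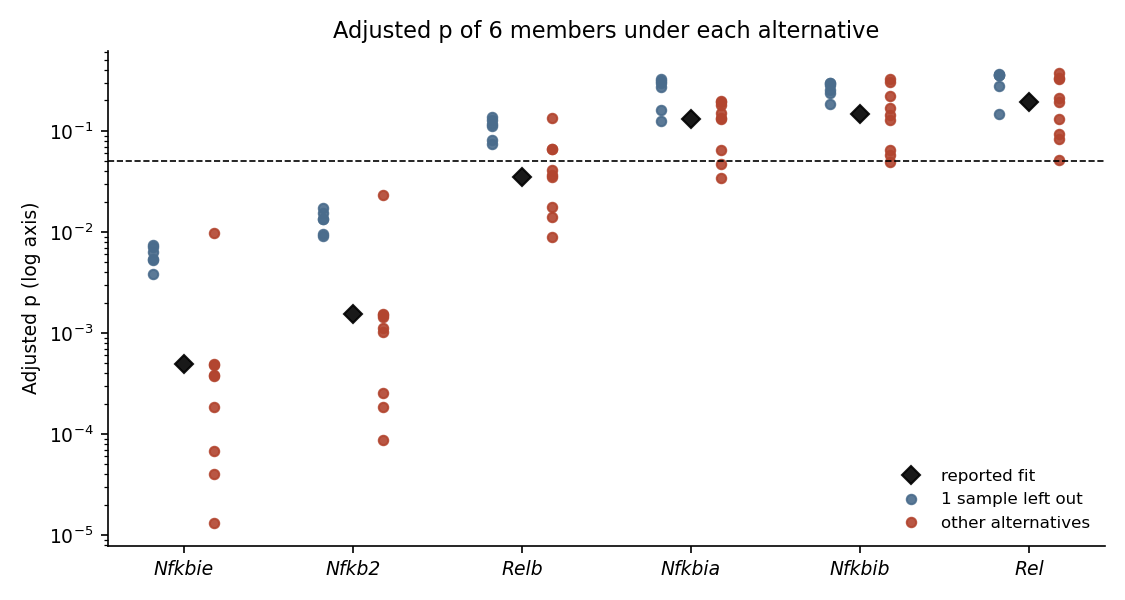
Adjusted p (vertical log axis) of 6 members in the reported fit (black diamonds), with 1 sample left out (blue, 6 points each) and under the other alternatives (red, 9 points each). The dashed line marks 0.05. Nfkbie and Nfkb2 stay below it throughout, Relb lies on both sides, and Nfkbia and Nfkbib fall below it in few alternatives.

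Upstream of the members, several receptors that feed NF-kB rose, while the kinases of the pathway did not pass the test. Of 15 measured receptors and receptor adaptors, 6 rose and 0 fell by limma (median log2 fold change 0.15), with 6 higher and 0 lower at p under 0.05 before adjustment. Over all genes 2.51% rose and 1.10% fell, and 8.91% were higher and 6.32% lower before adjustment, with a median of 0.00. This list and the pathway lists below were drawn up with earlier results of these data known. Shares over all genes therefore give a scale for their counts, not a test. Cd40, the costimulatory receptor that signals through both pathways, had intensities of 169, 197 and 189 in the Blnk samples, against 77, 74 and 78 in the pMIG samples (log2 fold change 1.27, limma adjusted p = 0.000147). Tlr9, the receptor for unmethylated CpG DNA, had 387, 442 and 437 in the Blnk samples, against 198, 197 and 203 in the pMIG samples (1.08, limma adjusted p = 0.000271). Tnfrsf13c, the BAFF receptor and a classical input of the non-canonical pathway, had 711, 699 and 819 in the Blnk samples, against 443, 479 and 497 in the pMIG samples (0.65, limma adjusted p = 0.00718). All 3 passed with any 1 sample left out.

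The other receptor genes that rose had smaller changes, and most of their calls were lost with fewer samples. Myd88, the adaptor of most Toll-like receptors, averaged 451 ± 22.1 in Blnk samples and 322 ± 22.6 in pMIG samples (SD, n = 3 each; limma adjusted p = 0.0163) and, with samples left out, passed only without pMIG 2, at 0.0596 (without Blnk 2) to 0.0890 (without pMIG 3) in the rest. Its log2 fold change of 0.49 was then 0.44 to 0.54. Tnfrsf13b, which encodes the BAFF and APRIL receptor TACI, averaged 654 ± 33.7 in Blnk samples and 504 ± 19.5 in pMIG samples (limma adjusted p = 0.0327) and lost its call whichever sample was omitted, at 0.0665 without Blnk 1 and up to 0.143 without pMIG 3. Its log2 fold change of 0.38 was then 0.34 to 0.41, so no single sample carried it. Tlr7 was dim, at 23, 24 and 21 in the Blnk samples against 18, 14 and 15 in the pMIG samples (limma adjusted p = 0.0368), so rounding to whole numbers weighs on it, and its log2 fold change of 0.54 was 0.29 on the log2(value + 16) scale, which understates changes of dim genes. With samples left out it passed only without pMIG 1, the others giving an adjusted p of 0.0944 to 0.171 and log2 fold changes of 0.46 to 0.59. Ltbr and Tnfrsf11a, other receptors of the non-canonical pathway, were dim and did not pass. Of the 15 measured receptors and receptor adaptors, 6 stayed below an intensity of 100 on all arrays.

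Of 7 measured genes of the arm that links protein kinase C-beta through BCL10, MALT1 and TAK1 to the IkB kinases, 1 rose and 0 fell by limma (median 0.10), with 2 higher and 0 lower at p under 0.05 before adjustment. This was Malt1, a paracaspase, with 1605, 1777 and 1700 in the Blnk samples, against 1210, 1169 and 1204 in the pMIG samples (log2 fold change 0.50, limma adjusted p = 0.00784). Its groups were far apart, and of the samples left out in turn, it failed without pMIG 3 alone (0.0528). Of 5 IkB kinase genes and relatives, 0 rose and 0 fell by limma, also at p under 0.05 before adjustment (median 0.05). Ikbkb, the kinase that marks the canonical inhibitors for destruction, had 627, 620 and 560 in the Blnk samples, against 612, 607 and 583 in the pMIG samples (log2 fold change 0.00, 95% interval -0.17 to 0.17 by limma), with overlapping groups. Chuk was not analysed here. The shares over all genes were 2.51% that rose and 1.10% that fell by limma, and 8.91% higher and 6.32% lower before adjustment.

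Of the control genes of the non-canonical pathway, 1 passed the test. Map3k14, which encodes NIK, had 157, 166 and 150 in the Blnk samples, against 157, 168 and 166 in the pMIG samples (log2 fold change -0.05, 95% interval -0.22 to 0.11; limma adjusted p = 0.801). Birc3, an inhibitor-of-apoptosis ligase of the complex that degrades NIK and itself a known NF-kB target, rose alone among 4 measured genes, with 312, 331 and 332 in the Blnk samples against 237, 247 and 239 in the pMIG samples (0.43, limma adjusted p = 0.0120). It did not pass without Blnk 2 (0.0633), Blnk 3 (0.0638) or pMIG 3 (0.0711). Of these 4 genes 0 fell, also at p under 0.05 before adjustment, and Traf3 was not analysed here. Over all genes 2.51% rose and 1.10% fell by limma, and 6.32% were lower before adjustment.

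Negative regulators and ubiquitin ligases did not pass. For scale, 2.51% of all genes rose and 1.10% fell by limma, and 8.91% were higher and 6.32% lower before adjustment. Of 9 deubiquitinases and other brakes, 0 rose and 0 fell by limma (median 0.13), with 3 higher and 0 lower at p under 0.05 before adjustment. Tnfaip3, which encodes the brake A20 and is a well-known NF-kB target, had 140, 127 and 136 in the Blnk samples, against 126, 127 and 123 in the pMIG samples (log2 fold change 0.10, limma adjusted p = 0.578). Its groups shared a value, unlike those of Nfkbie. Of 6 ubiquitin ligases and scaffolds, 0 rose and 0 fell by limma (median 0.01), with 1 higher and 1 lower at p under 0.05 before adjustment. Of the IkB relatives outside the set, Nfkbid, which encodes the nuclear IkBNS, had 318, 356 and 352 in the Blnk samples, against 254, 266 and 266 in the pMIG samples (0.38, limma adjusted p = 0.0325). It passed only without Blnk 1 among samples left out, with 0.102 (without pMIG 2) to 0.127 (without Blnk 3) in the rest. Centring the arrays also ended its call. Nfkbil1 did not pass (-0.22, limma adjusted p = 0.204), but every Blnk sample lay below every pMIG sample, as in 8.15% of all genes. Of these 2 relatives, 1 was higher and 1 lower at p under 0.05 before adjustment.

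**Figure D4:**
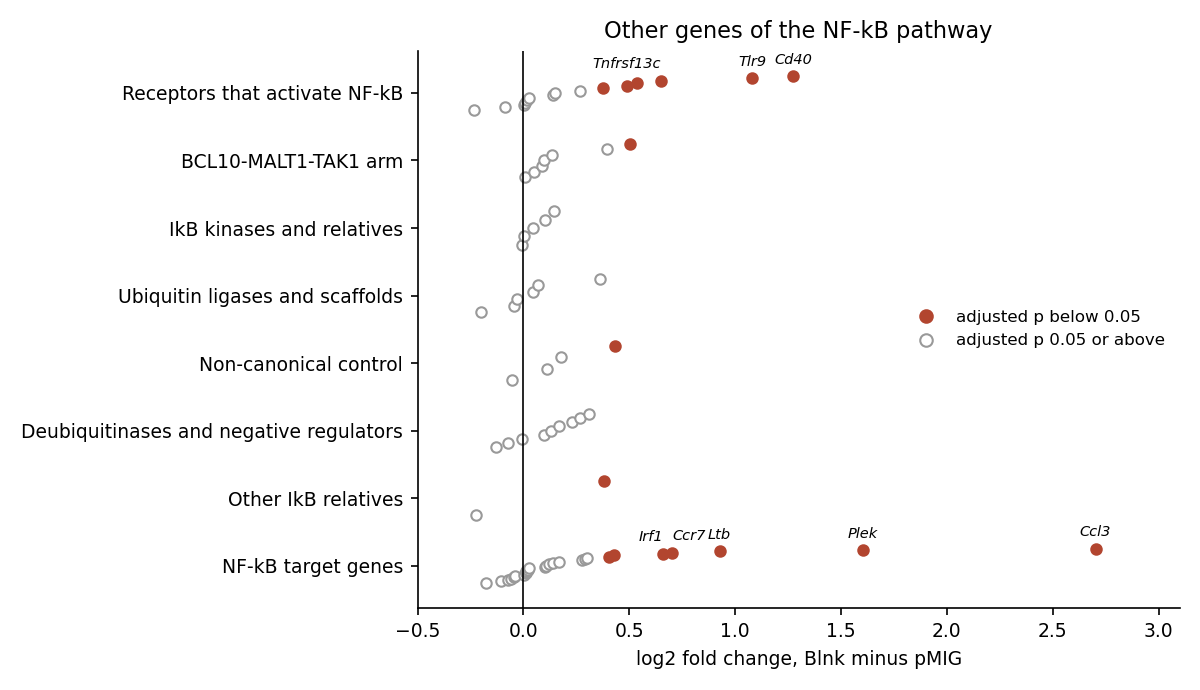
log2 fold change (horizontal axis, Blnk minus pMIG) of 75 measured genes of the NF-kB pathway outside the set, by list. Filled points passed an adjusted p of 0.05, and those above 0.6 are named. The 16 genes that passed all lie to the right of 0, most of them among receptors and target genes. The lists were drawn up with earlier results of these data known.

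Of 27 measured target genes of NF-kB outside the set, 7 rose and 0 fell by limma (median 0.11), with 10 higher and 0 lower at p under 0.05 before adjustment (2.51% and 1.10%, and 8.91% and 6.32%, of all genes). The target list was drawn up with earlier results of these data known, so these counts are no independent test. The chemokine Ccl3 had 1452, 1582 and 1378 in the Blnk samples, against 197, 234 and 249 in the pMIG samples (log2 fold change 2.70), and Plek, a substrate of protein kinase C, rose by 1.60. Both passed with any 1 sample left out. Ltb, a ligand of the lymphotoxin-beta receptor and thus of the non-canonical pathway, had 225, 243 and 317 in the Blnk samples, against 142, 126 and 141 in the pMIG samples (0.93, limma adjusted p = 0.00873). It failed without Blnk 2 (0.0530) or pMIG 3 (0.0606).

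Ccr7, Irf1 and Irf4 rose by 0.70, 0.66 and 0.40. Ccr7, a chemokine receptor (adjusted p = 0.0103 by limma), did not pass without pMIG 1 (0.0600), Blnk 2 (0.0714) or pMIG 3 (0.0768). The interferon regulatory factor Irf1 (adjusted p = 0.0173 by limma) passed, with samples left out, only without Blnk 1, reaching 0.101 without pMIG 3. With the mean of all its probes its log2 fold change was 0.32 and its call was lost (adjusted p = 0.175 by limma). Its relative Irf4 (adjusted p = 0.0164 by limma) passed, with samples left out, only without pMIG 2, reaching 0.0838 without pMIG 3. Without pMIG 3, 2 of the 27 targets passed. Tnf, Icam1 and Traf1, other textbook targets, did not pass the test, at 0.17, 0.30 and -0.11. In 10 of the 27 targets, Tnf and Icam1 among them, every Blnk sample lay above every pMIG sample, as in 11.8% of all genes. In 1, Bcl2l1 (log2 fold change -0.18), every Blnk sample lay below every pMIG sample, as in 8.15% of all genes. Traf1 stood at 12 to 15 on all arrays, so rounding to whole numbers weighs on it. Of the 27 targets, 12 stayed below an intensity of 100 on all arrays. Over all 75 pathway genes outside the set, 16 rose and 0 fell by limma, with 24 higher and 2 lower at p under 0.05 before adjustment. The same 4 shares over all genes were 2.51%, 1.10%, 8.91% and 6.32%. They give a scale and not a test, since the lists were drawn up with earlier results of these data known.

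Most markers of other cells were dim, but some were as bright as members of the set. Pecam1 stood at 725, 806 and 770 in the Blnk samples, against 467, 507 and 504 in the pMIG samples. Fcgr1 had 235, 258 and 233 in Blnk against 135, 160 and 139 in pMIG samples. Cd8a had 184, 255 and 134 in Blnk against 185, 149 and 176 in pMIG samples. Col1a1 had 113, 108 and 129 in Blnk against 149, 111 and 123 in pMIG samples. Of 12 myeloid markers, 10 stayed below an intensity of 100 on all arrays, and their summed level was 658 to 739 in the Blnk samples against 537 to 564 in the pMIG samples. Of that list 1 rose, the Fc receptor gene Fcgr1 (0.74), and 2 were higher and 0 lower at p under 0.05 before adjustment. The other of these was Cd68, a lysosomal protein of macrophages, with 117, 173 and 138 in the Blnk samples against 85, 90 and 106 in the pMIG samples (0.59, limma adjusted p = 0.0866), without overlap. Csf1r, Itgam and Lyz2 stood between 28 and 39 on all arrays. Of 10 T and NK cell markers, 0 rose and 0 fell by limma, also at p under 0.05 before adjustment, with sums of 424 to 530 in the Blnk samples and 413 to 496 in the pMIG samples. The sums for 6 erythroid and megakaryocyte markers, 0 of them called and 0 also at p under 0.05 before adjustment, were 248 to 291 in the Blnk samples and 239 to 282 in the pMIG samples. Those for 9 stromal and endothelial markers were 1175 to 1290 in the Blnk samples and 935 to 1003 in the pMIG samples, where the 1 that rose, Pecam1 (0.64), is also a B-cell protein and 2 were higher and 0 lower at p under 0.05 before adjustment. Beside these marker counts, 2.51% of all genes rose and 1.10% fell by limma, and 8.91% were higher and 6.32% lower before adjustment. The part of other cells in the NF-kB results was not tested.

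The genes with the most similar pattern were found for the 3 members that rose, as the smallest Euclidean distance between log2 profiles over the 6 samples, each centred on its own mean, among genes brighter than the median gene. For Nfkbie these were Cd52, a small surface glycoprotein of lymphocytes (distance 0.07), and the B-cell kinase Blk (0.11). For Nfkb2 they were Rasgrp1, an activator of RAS (0.07), and Prr13 (0.10). For Relb they were Cd48, a surface protein of leukocytes (0.06), and Septin7, a cytoskeletal GTPase (0.08). With 6 samples in 2 groups, such closeness mainly reflects a group difference of equal size.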

How the data were processed

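RNA of 6 samples was measured on Affymetrix arrays, 1 per sample. The deposited table gives linear intensities, in whole numbers between 3 and 22187. Per the submitters' processing notes RMA was used, in a version that the labels do not state. It yields log2 values, so these numbers were probably turned back to a linear scale and rounded, an inference from the values alone. As the test was planned for log2 values, log2 was taken first, with nothing added.

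Of 35421 probes, 21789 had 1 gene symbol in the platform annotation, 1621 had several and 12011 were not listed there. Only single-symbol probes were used, the brightest per gene, which gave 19938 genes. The comparison of Blnk with pMIG used limma 3.58.1 in R 4.3.3 (lmFit, eBayes) with group as the only term, two-sided, and Benjamini-Hochberg adjustment over all genes at 0.05. The script was tested on simulated data. Intervals are 95% intervals of limma. The number of arrays limits the precision.

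The members, the pathway lists (84 entries, 75 measured), the markers and the rule for naming genes were chosen with earlier results of these data known. The rule named all members, up to 6 called genes of each list by adjusted p, 8 control genes whatever their values (1 is not reported here), and the 2 nearest profiles of each called member. Genes named beyond it were chosen after their values were seen. Alternatives were a replicate block, 2 normalizations, a filter at the 40th percentile, the mean over probes, log2(value + 16), 2 variance priors, array weights and each sample left out. Same-numbered samples did not deviate together (r from -0.19 to 0.06), so the numbers were not taken as pairs.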

Additional observations from a re-analysis of the deposited data

How the results depend on the processing

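Nfkbie and Nfkb2 passed under all 15 alternatives, with adjusted p up to 0.00966 and 0.0234, both under the replicate block. Relb did not pass under the block (0.133), quantile normalization (0.0669) or centring (0.0668), nor with any sample left out (0.0744 to 0.137), and passed under the other 6. Nfkbia passed without dim genes (0.0468) and with a variance trend (0.0338), and Nfkbib with the trend (0.0489), so that 5 members passed with the trend. No other member's call changed, and leaving out a sample gave 2 members each time. Bcl3 changed sign, never past the threshold, under quantile normalization (0.956), centring (0.957), array weights (0.887) and in 3 of 6 fits with a sample left out (0.997 without pMIG 1, 0.849 without pMIG 2 and 0.799 without Blnk 3, where all 6 gave 0.779 to 0.997). Ikbkb did so under quantile normalization (0.863), centring (0.897) and in 3 of 6 fits with a sample left out (0.951 without pMIG 3, 0.925 without Blnk 1 and 0.954 without Blnk 2, where all 6 gave 0.790 to 0.977). The canonical median was 0.18 under quantile normalization (0.1808) and centring (0.1824), and that of the non-canonical members stayed between 0.49 and 0.57.

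Over all genes, 289 passed under the replicate block, 1228 without dim genes, 1100 with log2(value + 16), 1313 with the trend, and 267 to 437 with a sample left out, where fewer samples weaken the test by construction. Under the block 3 receptors, 0 genes of the BCL10 and MALT1 arm, 0 of non-canonical control, 0 other IkB relatives and 4 targets passed. Without dim genes, with log2(value + 16) and with the trend, 2 genes of the BCL10 and MALT1 arm passed in each and 1 ubiquitin ligase in each, and negative regulators numbered 1 without dim genes and 2 with the trend. Centring left 0 other IkB relatives. With a sample left out, 3 to 4 receptors, 0 to 1 of the BCL10 and MALT1 arm, 0 to 1 of non-canonical control, 0 to 1 other IkB relatives and 2 to 6 targets passed. The causes of these changes were not tested. The labels do not say whether same-numbered samples are pairs, and they were not taken as such, since none of the 6 samples correlated best with its own number. The block, which also costs residual degrees of freedom, changed the count of calls from 720 genes to 289. Of 374 results of 25 other named genes under the alternatives, 307 kept their side of the threshold and their direction, 59 no longer passed, 3 newly passed and 5 changed sign. Nfkb1 gave no value under any alternative. Rounding to whole numbers limits dim probes such as that of Tlr7.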
